A study of Mus musculus with 42 samples.

Results

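The 10 genes described here encode histone deacetylases and the corepressor proteins that carry them: Hdac1, Hdac2, Hdac4, Hdac11, Sin3a, Sin3b, Rbbp4, Sap30, Kdm1a and Chd4. They were taken by name from 15737 genes with a symbol listed once in a table of RNA-seq values from mouse embryos, and all 10 were found. The RNA-seq had 18 samples in 9 groups of 2, from ICR embryos collected after hCG, the hormone that triggers ovulation. Early 2-cell embryos were taken at 34 h, late 2-cell embryos at 48 h and 4-cell embryos at 58 h. Late 2-cell embryos were controls (con, genotype WT, labelled untreated), treated with FK866 at 0.01 µM, with FK866 at 0.01 µM and NMN at 10 µM, with TSA at 10 nM, or labelled Sirt1, the knockdown of that deacetylase in zygotes by siRNA together with Trim21 mRNA and an antibody to SIRT1. By the study's methods, inhibitors were compared with DMSO alone and the knockdown with scrambled siRNA and Trim21 mRNA, and the labels give the RNA-seq controls none of these. The 4-cell embryos were controls with the same labels, FK866-treated or FK866+NMN-treated. Each library was made from 3 whole embryos, so that fewer expressing cells and less RNA per cell cannot be told apart, and nothing in the labels says whether the libraries of a group came from separate matings. The p-values below measure only the spread between such libraries, which may be technical.

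Histone deacetylases remove acetyl groups from histone tails such as H3K27, which closes promoters and enhancers to transcription. HDAC1 and HDAC2, of class I, work inside complexes. The Sin3 complex is built on SIN3A or SIN3B with SAP30 and the histone-binding protein RBBP4. The NuRD complex joins them to the remodelling ATPase CHD4, and the CoREST complex to KDM1A (LSD1), a demethylase of H3K4. HDAC4 is a class IIa enzyme that shuttles between nucleus and cytoplasm, and HDAC11 is the member usually put in class IV. All of these deacetylases use zinc. TSA blocks zinc-dependent deacetylases, whereas SIRT1 uses NAD+, whose salvage synthesis FK866 blocks at NAMPT and NMN restores. In the mouse embryo, the first zygotic transcripts appear before the late 2-cell stage, when the main wave of genome activation and the loss of maternal transcripts take place.

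The table holds FPKM (fragments per kilobase of exon, scaled to the size of the library) with 1 column per group. In 7 columns the values proved to be sums of 2 libraries, which were separated into whole reads, and library A is the deeper of each column. In the other 2, those with the 4-cell FK866 and 4-cell FK866+NMN headers, the step of 1 library alone was found, so that 1 library and reads pooled beforehand cannot be told apart, and there was no replicate in them. The 16 libraries held from 3169677 to 10003481 reads. In 5 cases the header and the study's tables point to different groups. For the 4-cell groups of the tables this rests on equal values, and for TSA and Sirt1 only on the signs of fold changes. By the tables, the columns headed late 2-cell TSA, late 2-cell Sirt1 and 4-cell control are 4-cell control, 4-cell FK866 and 4-cell FK866+NMN, and those headed as FK866 and as FK866+NMN at the 4-cell stage are late 2-cell TSA and late 2-cell Sirt1. The summed FPKM of 8 genes of the 2-cell stage was 16.6, 27.5 and 44.5 in the first 3 of these columns and from 160.2 to 406.4 in the other 6. Sirt1, the knockdown target, had 32.4 and 73.1 FPKM under the late 2-cell Sirt1 header, 86.6 and 66.2 in late 2-cell control, and 11.3 in the column headed 4-cell FK866+NMN. It was lower still, at 7.61, in the column headed 4-cell FK866, which the tables name TSA, so that a low level of Sirt1 does not single out 1 column. Every comparison that uses these 5 columns is therefore given by both readings, and columns are called by their headers unless stated. Summed FPKM of 5 markers of cumulus cells, which surround the egg, was at most 4.68 in any column.

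Sap30 was the most abundant of the 10 transcripts in all 9 columns, from 78.3 FPKM in the column headed 4-cell FK866 to 855.1 in early 2-cell embryos. Without Sap30, the other 9 genes summed to between 87.2 and 125.9 FPKM per column. In late 2-cell control embryos the order after Sap30 was Hdac1, Sin3a, Sin3b, Kdm1a, Hdac2, Chd4, Rbbp4, Hdac4 and Hdac11. Hdac2 and Chd4 varied least among the genes with reads in every column, with a ratio of the highest to the lowest column of 3.12 and 3.08, and Kdm1a most, with 31.5. Across the 9 columns ordered by level, 7 of the 8 neighbouring steps of Hdac2 and 6 of the 8 of Chd4 lay within the spread of the libraries, whereas for Kdm1a 3 of the 8 did. Hdac1 also had 6 of 8, with a ratio of 15.8, so that these steps do not measure how far a gene varied.

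**Figure D1:**
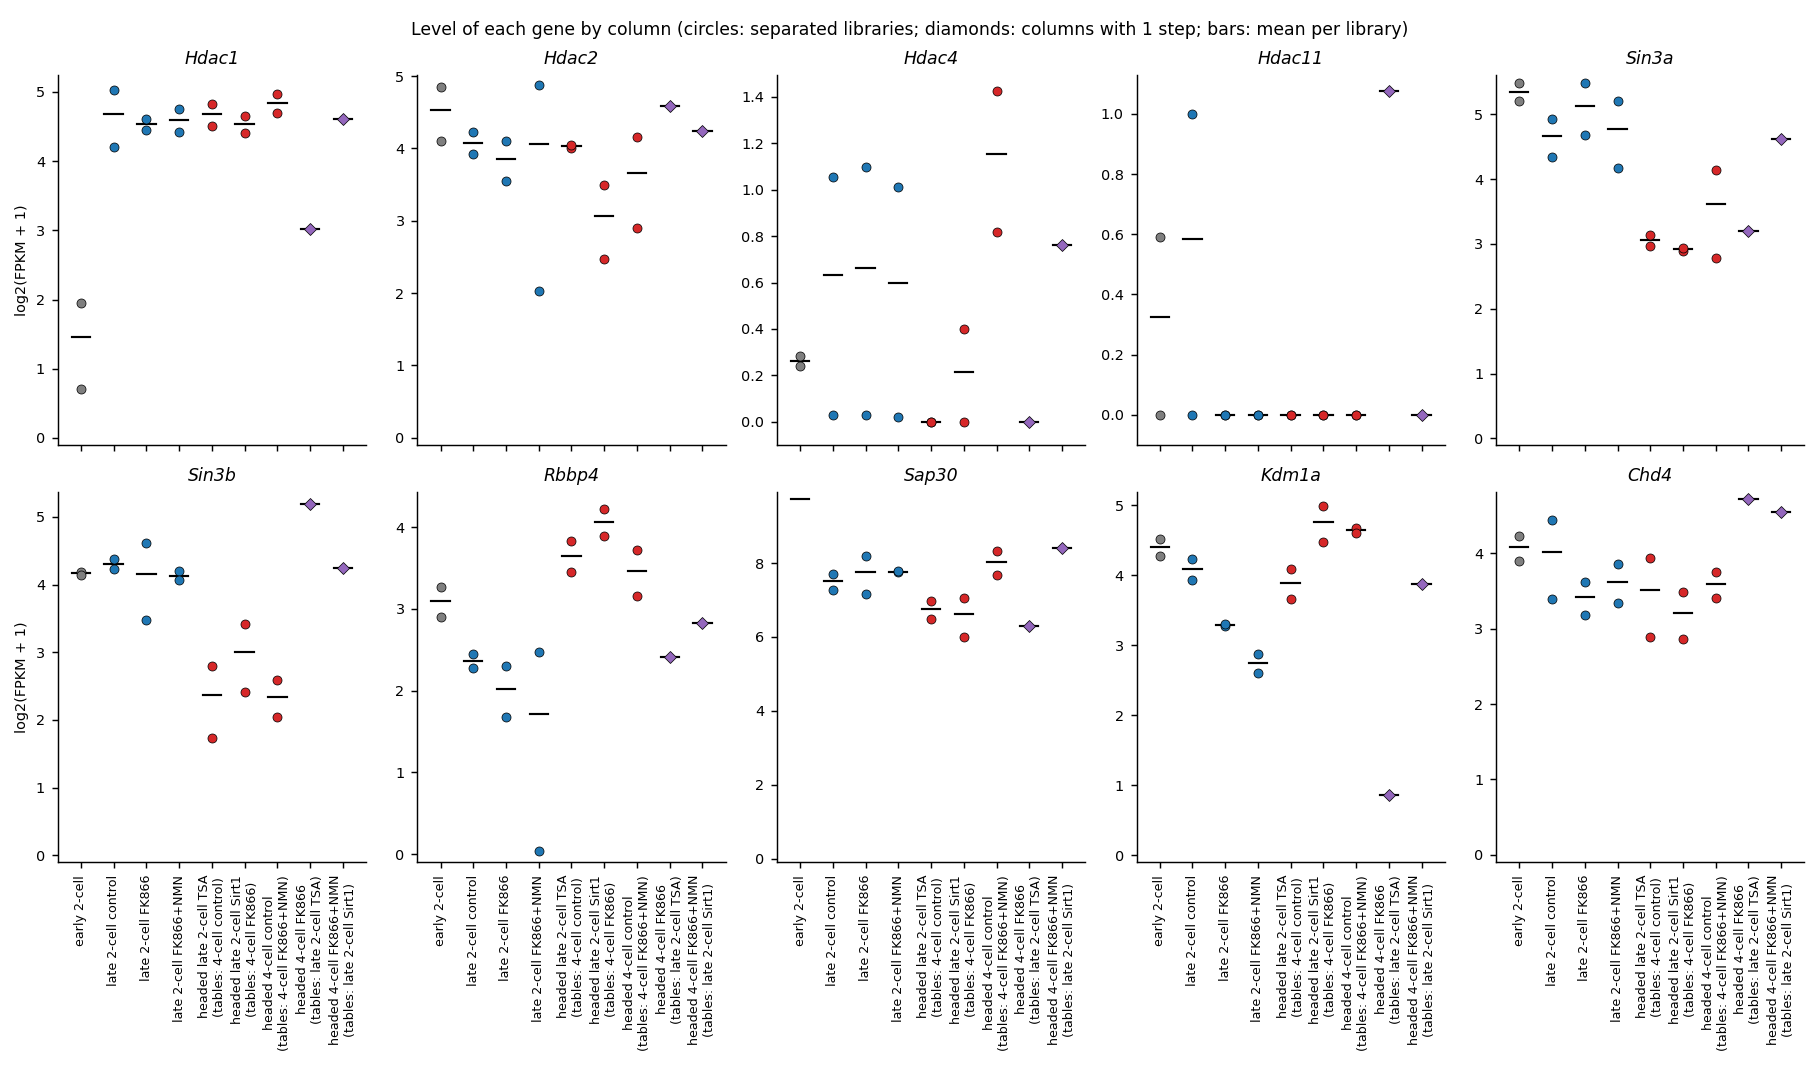
Level of each of the 10 genes as log2(FPKM + 1), in the 9 columns (horizontal axis, with the header and the name by the tables where they differ). Circles are separated libraries, diamonds the columns with 1 step and bars the mean per library. Hdac1 is low in early 2-cell embryos, Sin3b is low and Rbbp4 high in the 3 red columns, Sin3a is low there and in the column headed 4-cell FK866, and Kdm1a drops to 0.825 FPKM in the column headed 4-cell FK866. For Sap30 in early 2-cell embryos only the mean is drawn.

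From the early to the late 2-cell stage, Hdac1 rose and passed the test. Sap30 was lower, with a call that depended on how its reads were split, and the other genes of the group that could be compared did not pass. Hdac1 had 2.88 and 0.625 FPKM (56 and 10 reads) in the early 2-cell libraries and 31.8 and 17.5 FPKM (714 and 251 reads) in the late 2-cell control libraries. Both early libraries thus lay far below both late ones, and libraries did not overlap for 5 of 7 members and 64.9% of all genes. The mean was 14.04 times higher at the late stage, with a log2 fold change of 3.29 ± 0.49 (limma's SE) and an adjusted p of 0.00167 by limma. Hdac1 stayed called in every fit that left out 1 library of a column with 2 libraries. Hdac1 then lay between 17.5 and 31.8 FPKM in all 12 libraries of the other 6 columns with 2 libraries.

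Sap30, which bridges SIN3 to its partners, had a mean of 855.1 FPKM per library in early 2-cell embryos. Its reads in that column can be split in 2 exact ways, as 344.6 and 1365.6 FPKM or as 751.3 and 958.8 FPKM. In late 2-cell control embryos the libraries had 208.9 and 153.7 FPKM. Under either split, both early libraries exceeded both late ones, and the early mean was 4.72 times the late mean. The first split gave a log2 fold change of -1.93 ± 0.63 with an adjusted p of 0.0696 by limma, and the second -2.24 ± 0.44 with an adjusted p of 0.00818, so that the call rests on a split the file does not settle.

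Of the 8 genes with at least 1 FPKM at either stage, 1 was higher and 1 lower past 2-fold in column means, where 32.2% of all genes were higher and 31.7% lower. By limma, 15.0% of the genes fitted were called. Sin3a had 43.6 and 36.1 FPKM early and 29.5 and 19.2 FPKM late. Its early libraries lay above its late ones, but the log2 fold change of -0.71 ± 0.55 had an adjusted p of 0.445. Rbbp4 had 6.47 and 8.64 FPKM early and 3.84 and 4.45 FPKM late, with a log2 fold change of -0.73 ± 0.71 and an adjusted p of 0.566. Sin3b changed from 17.1 and 16.7 to 19.8 and 17.7 FPKM (adjusted p = 0.967 by limma), Kdm1a from 21.9 and 18.4 to 17.7 and 14.2 FPKM (adjusted p = 0.654), and Hdac2 and Chd4 had overlapping libraries. Hdac2, the partner enzyme of Hdac1, was already present early, at 27.8 and 16.2 FPKM, and had 17.7 and 14.1 FPKM late.

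**Figure D2:**
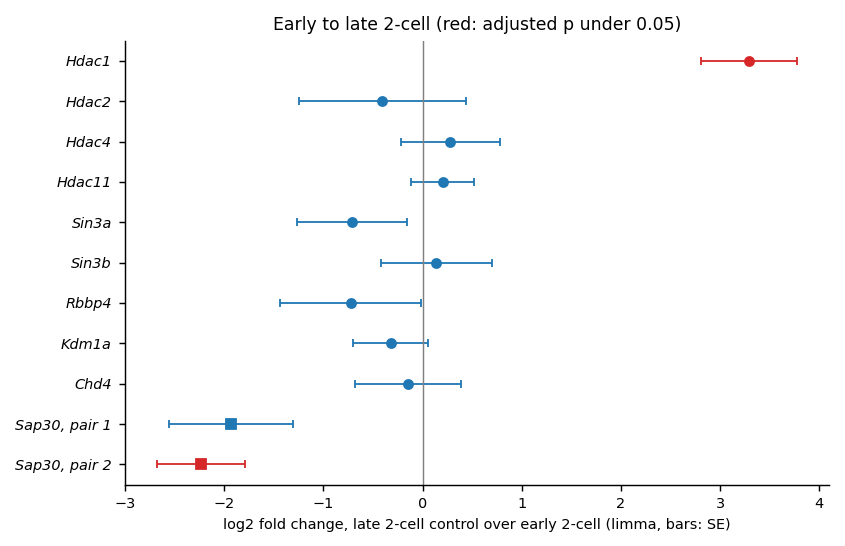
Log2 fold change from early to late 2-cell control embryos (horizontal axis) for each gene, with limma's SE as bars, over 2 libraries per stage. Hdac1, at 3.29, is the only gene called with every library separated, and Sap30 is drawn under both splits of its early reads, at -1.93 and -2.24.

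No member passed the test with FK866 or FK866+NMN at the late 2-cell stage, and Kdm1a had the difference nearest to the threshold. With FK866, 0 of 8 genes passed 2-fold against control, where 38.1% of all genes did, and limma called 0 of 9 members and 0.405% of the genes fitted, with 0 members under an unadjusted p of 0.05. The number of calls over all genes, 30 higher and 17 lower, rose in both directions when FK866 library A or control library A was left out. It thus depended on single libraries and is no measure of how many genes differ. The median log2 difference was -0.19 over the 8 genes and -0.06 over all genes. Kdm1a had 17.7 and 14.2 FPKM in control, 8.66 and 8.91 FPKM with FK866, and 5.09 and 6.35 FPKM with FK866+NMN. The 3 groups did not overlap, and the mean with NMN was the lowest. Libraries did not overlap for 1, 1 and 3 of 8 members and 36.9%, 34.7% and 39.0% of all genes between FK866 and control, FK866+NMN and FK866, and FK866+NMN and control. Its log2 fold change was -0.79 ± 0.38 for FK866 against control (unadjusted p = 0.0653 and adjusted p = 0.560 by limma). For FK866+NMN against control it was -1.34 ± 0.38 (unadjusted p = 0.00577 and adjusted p = 0.0918 by limma), which missed the threshold. For FK866+NMN against FK866 it was -0.55 ± 0.38, with an adjusted p of 0.549. With each library centred on its median, the value for FK866 stayed at -0.82, whereas those for FK866+NMN turned to 0.05 against control and 0.87 against FK866, so that no direction with NMN held under both scalings. Values above 0 numbered 7944 in the FK866+NMN column, 9740 in control and 10157 with FK866. For FK866+NMN, the median log2 difference over genes at 1 FPKM or more in either column was -0.35 against control and -0.24 against FK866. Both were smaller in size than the differences of Kdm1a before centring. Whether genes without reads moved the medians of the libraries was not tested.

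Kdm1a was thus the 1 of 8 genes past 2-fold between FK866+NMN and control, where 57.2% of all genes passed, and 0 of 8 passed between FK866+NMN and FK866, where 52.1% did. Limma called 3.49% and 2.09% of the genes fitted in these comparisons and 0 of 9 members in each, with 1 and 0 members under an unadjusted p of 0.05. Hdac1 had 23.5 and 20.7 FPKM with FK866 and 25.9 and 20.4 FPKM with FK866+NMN. Sin3b had 23.5 and 10.1 FPKM with FK866 and 17.3 and 15.7 FPKM with FK866+NMN. For both genes the libraries of the treated groups overlapped. With FK866+NMN, libraries A and B stood far apart in Hdac2, at 28.4 and 3.09 FPKM, and in Rbbp4, at 0.0270 FPKM (2 reads) and 4.55 FPKM. No mean of these genes in that group is therefore precise.

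**Figure D3:**
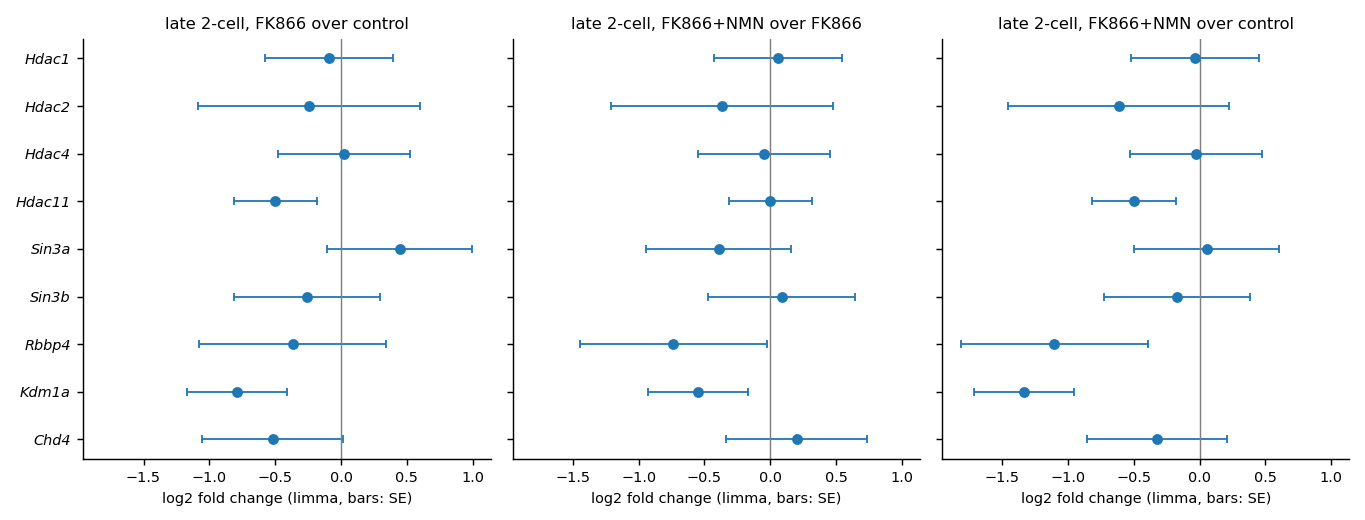
Log2 fold changes at the late 2-cell stage (horizontal axes) for 9 genes in 3 comparisons of FK866, FK866+NMN and control, each over 2 libraries per group, with limma's SE as bars. Kdm1a lies at -0.79, -0.55 and -1.34, and no gene was called.

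Sin3a, Sin3b, Rbbp4 and Kdm1a differed by limma between the 3 columns that the tables name 4-cell and the late 2-cell columns of the same treatments, which are control, FK866 and FK866+NMN. The columns that the tables name late 2-cell TSA and Sirt1, of 1 library each, were left out and are added further on. This contrast of 6 with 6 libraries was added after the values had been seen, and by the headers the same libraries would be those of late 2-cell TSA, late 2-cell Sirt1 and 4-cell control. Because limma called these 4 members in this contrast, the 250 bases before the annotated start of these 4 genes are shown (GRCm38.p6, RefSeq, each 5′ to 3′ on the gene's strand). Capitals mark the GC box, GGGCGG or CCGCCC on the other strand, the binding motif of SP1-type factors. Sin3a, which has 2 annotated starts, is shown at the first, at chr9:57071790-57072039, and Sin3b lies at chr8:72723020-72723269, both on the plus strand. Rbbp4 lies at chr4:129335371-129335620 and Kdm1a at chr4:136602724-136602973, both on the minus strand.
Sin3a: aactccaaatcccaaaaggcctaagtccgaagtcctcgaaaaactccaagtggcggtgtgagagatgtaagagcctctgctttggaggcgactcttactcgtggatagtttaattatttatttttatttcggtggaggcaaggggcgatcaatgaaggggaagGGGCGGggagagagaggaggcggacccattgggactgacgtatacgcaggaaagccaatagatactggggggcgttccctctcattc
Sin3b: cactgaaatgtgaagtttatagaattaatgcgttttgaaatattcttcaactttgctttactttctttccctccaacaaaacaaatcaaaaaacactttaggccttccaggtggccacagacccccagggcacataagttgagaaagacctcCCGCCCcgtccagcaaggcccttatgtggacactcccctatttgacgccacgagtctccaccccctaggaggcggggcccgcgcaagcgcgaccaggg
Rbbp4: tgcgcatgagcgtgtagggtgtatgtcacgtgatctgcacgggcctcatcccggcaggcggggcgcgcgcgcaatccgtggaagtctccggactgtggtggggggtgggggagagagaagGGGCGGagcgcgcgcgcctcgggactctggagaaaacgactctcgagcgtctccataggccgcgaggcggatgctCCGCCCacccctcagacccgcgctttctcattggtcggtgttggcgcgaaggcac
Kdm1a: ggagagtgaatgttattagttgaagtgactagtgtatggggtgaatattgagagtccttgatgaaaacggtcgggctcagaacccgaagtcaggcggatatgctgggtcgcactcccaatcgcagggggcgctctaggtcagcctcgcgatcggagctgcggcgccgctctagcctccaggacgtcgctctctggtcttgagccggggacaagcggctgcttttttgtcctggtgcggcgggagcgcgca

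The GC box was found once before Sin3b, 2 times before Rbbp4 and once at this start of Sin3a, and not in the window of Kdm1a. Of the 11 windows of the 9 members with an entry, 10 held it, against 32.7% of the 32851 windows in the table. The 2 windows of Chd4 overlap, and the 32851 windows were not limited to genes expressed here. The shorter CCAAT box, CCAAT or ATTGG on the other strand, was found in 7 of the 11 windows and in 33.8% of all, and 2 of its matches lie in the Sin3a window shown and 1 each in those of Rbbp4 and Kdm1a. Matches of these letters are a description, and nothing in the data measures binding. Hdac1 had no entry. Rbbp4 and Hdac1 lie on the same strand of chromosome 4, with 180.7 kb between them.

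By the tables, both SIN3 scaffolds were lower in the 4-cell columns than in the 3 late 2-cell ones. Sin3a ranged from 17.1 to 43.6 FPKM (median 27.1) over the 6 late 2-cell libraries and from 5.88 to 16.6 FPKM (median 6.75) over the other 6. Sin3b ranged from 10.1 to 23.5 FPKM (median 17.5) and from 2.33 to 9.71 FPKM (median 4.67). Neither gene's ranges overlapped over these 12 libraries. The log2 difference was -1.66 ± 0.32 for Sin3a (adjusted p = 0.00326 by limma) and -1.66 ± 0.32 for Sin3b (adjusted p = 0.00340 by limma). Rbbp4 went the other way, from a range of 0.0270 to 4.55 FPKM (median 3.88) to a range of 7.96 to 17.7 FPKM (median 12.7). Its log2 difference was 1.84 ± 0.41, with an adjusted p of 0.00733 by limma. About 9% of its exon length is shared with each of Sync and Gm26722 on the opposite strand, and reads of these cannot be told apart where the counting ignored strand.

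Kdm1a was higher as well, from a range of 5.09 to 17.7 FPKM (median 8.78) to a range of 11.7 to 30.7 FPKM (median 22.4). These ranges overlapped, and the log2 difference was 1.05 ± 0.22, with an adjusted p of 0.00526 by limma. Between the control columns alone, by the tables, Kdm1a was not higher, at 17.7 and 14.2 against 16.0 and 11.7 FPKM. That log2 difference was -0.20 ± 0.38. The means went from 8.78 to 26.0 FPKM with FK866 and from 5.72 to 23.9 FPKM with FK866+NMN. Limma called 4 of 9 members in this contrast and 29.6% of all genes fitted, with every 1 of the 14 fits that left out a library calling the same number. Ranges did not overlap for 3 members, against 19.9% of all genes. Hdac1, Hdac2 and Chd4 had log2 differences of 0.10 ± 0.28, -0.27 ± 0.49 and -0.25 ± 0.31, with adjusted p of 0.849, 0.722 and 0.581 by limma. Sap30 ranged from 143.1 to 290.8 FPKM and from 63.5 to 319.4 FPKM, with adjusted p of 0.303 and 0.141 under its 2 splits. Markers moved with this contrast too, since summed FPKM of 5 oocyte markers was from 53.2 to 102.5 in the 4-cell columns by the tables and from 1570 to 3930 in the 3 late 2-cell ones. Btg4 made up most of these sums, at 22.5 to 46.5 and 1461 to 3872 FPKM, whereas Zp3 overlapped, at 30.1 to 51.4 and 15.6 to 54.9 FPKM. The part of these transcripts in the result was not tested.

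With the libraries that the tables name late 2-cell TSA and Sirt1 added, also after the values had been seen, 6 libraries were compared with 8. Sin3a had 8.21 FPKM in the first of these, within the range of the 4-cell columns, so that its ranges then overlapped, whereas those of Sin3b and Rbbp4 did not. Ranges did not overlap for 16.8% of all genes. The log2 differences were -1.30 ± 0.31 for Sin3a (adjusted p = 0.00844 by limma), -1.88 ± 0.31 for Sin3b (adjusted p = 0.00114), 1.54 ± 0.39 for Rbbp4 (adjusted p = 0.0128) and 1.45 ± 0.21 for Kdm1a (adjusted p = 0.000557). Limma called these 4 of 9 members and 35.9% of all genes.

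**Figure D4:**
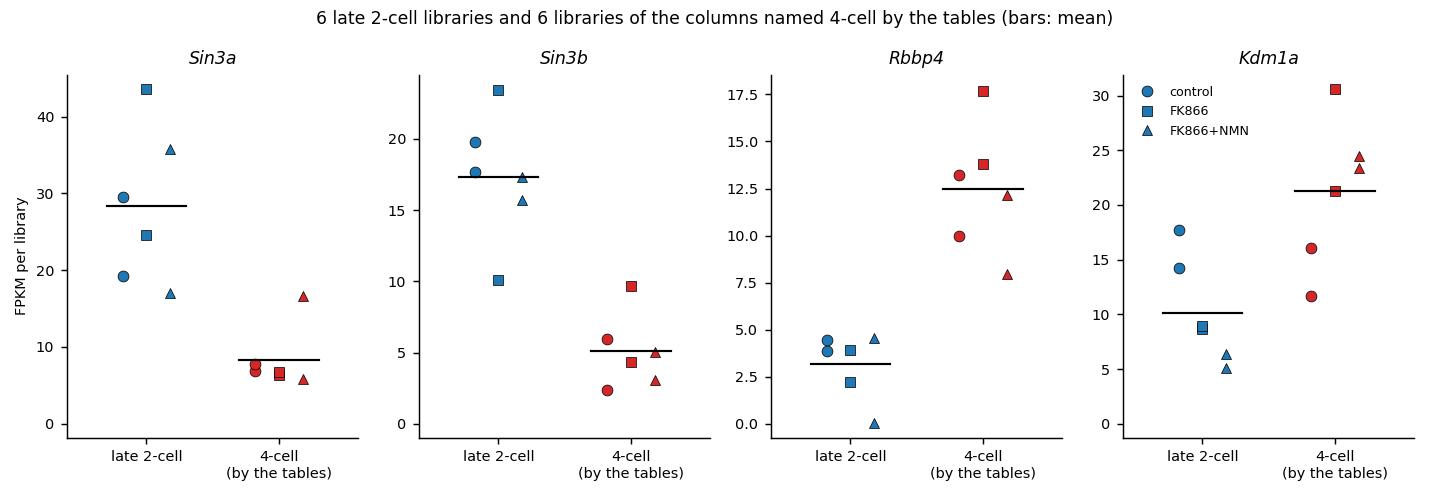
FPKM per library (vertical axis, from 0) of Sin3a, Sin3b, Rbbp4 and Kdm1a in 6 late 2-cell libraries (blue) and in 6 libraries of the columns that the tables name 4-cell (red). Shapes mark control, FK866 and FK866+NMN by the tables, and bars are means. The 2 sets are apart for Sin3a, Sin3b and Rbbp4, and overlap for Kdm1a.

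The values headed late 2-cell TSA, which the tables name 4-cell control, did not overlap with late 2-cell control for Sin3a, Sin3b, Rbbp4 and Sap30, which are 4 of 8 members, as for 56.6% of all genes. Sin3b had 5.95 and 2.33 FPKM there against 19.8 and 17.7 FPKM in control, a log2 fold change of -2.03 ± 0.56 with an adjusted p of 0.0453 by limma. Of 14 fits that left out 1 library, 6 kept that call, and the adjusted p ran from 0.0353 to 0.331 over the other settings, with the highest when libraries were centred on their medians. Sin3a had 6.83 and 7.82 FPKM against 29.5 and 19.2 FPKM, with an adjusted p of 0.109, and Rbbp4 had 9.98 and 13.2 FPKM against 3.84 and 4.45 FPKM, with an adjusted p of 0.321 that became 0.0456 with centred libraries. Sap30 had 124.6 and 88.0 FPKM against 208.9 and 153.7 FPKM. Of 8 genes, 1 was higher and 2 were lower past 2-fold, where 23.2% and 41.3% of all genes were, and limma called 1 of 9 members and 10.9% of the genes fitted.

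By the tables, TSA at the late 2-cell stage is the column headed 4-cell FK866, which showed 1 library. Kdm1a had 20 reads there, 0.825 FPKM with an exact 95% Poisson interval from 0.504 to 1.27 FPKM that covers counting error only. Late 2-cell control had 17.7 and 14.2 FPKM. The mean was 19.4 times lower, with a log2 fold change of -3.21 ± 0.46 and an adjusted p of 0.00204 by limma, which takes the lone library to vary like the others. Hdac1 had 7.07 FPKM against 31.8 and 17.5 FPKM (adjusted p = 0.1498 by limma), Sin3a had 8.21 FPKM against 29.5 and 19.2 FPKM (adjusted p = 0.274), and Sap30 had 78.3 FPKM against 208.9 and 153.7 FPKM (adjusted p = 0.460 and 0.258 under its 2 splits). Each of these lay below both control libraries. Sin3b, at 35.6 FPKM, Chd4, at 25.4, Hdac2, at 23.0, and Hdac11, at 1.11, lay above both. Hdac11 was counted only through this library, with 20 reads there and 0 and 16 reads in control. The lone library thus lay outside the control libraries for 8 of 9 members and for 74.6% of all genes. Past 2-fold, 0 of 9 genes were higher and 4 were lower, where 30.1% and 29.7% of all genes were, and limma called 1 of 9 members and 8.50% of all genes.

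In embryos labelled Sirt1, no member passed the test by either reading of the columns. By the headers, Rbbp4 had 17.7 and 13.8 FPKM, Sin3a 6.40 and 6.68 FPKM, Sin3b 9.71 and 4.33 FPKM and Hdac2 4.54 and 10.2 FPKM, with adjusted p of 0.204, 0.0931, 0.182 and 0.512 by limma against late 2-cell control. Kdm1a had 30.7 and 21.3 FPKM and Sap30 132.4 and 63.5 FPKM. These 6 of 8 members did not overlap with control, with Rbbp4 and Kdm1a above it, against 54.9% of all genes. Thus 1 of 8 genes was higher and 3 were lower past 2-fold, where 24.3% and 36.6% of all genes were, and limma called 0 of 9 members and 8.29% of all genes, with Sin3a, Sin3b and Rbbp4 under an unadjusted p of 0.05. By the tables, where the Sirt1 knockdown is a single library, 0 of 8 genes passed, where 44.5% did. The lone library had 23.4 FPKM for Hdac1, 23.7 for Sin3a, 18.0 for Sin3b, 6.09 for Rbbp4 and 13.7 for Kdm1a. Limma called 0 of 9 members and 0.973% of all genes, and 0 members had an unadjusted p under 0.05.

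From late 2-cell control to 4-cell control by the headers, Sin3b went from 19.8 and 17.7 to 5.02 and 3.10 FPKM, with a log2 fold change of -1.99 ± 0.56 and an adjusted p of 0.0666 by limma. Sin3a went from 29.5 and 19.2 to 16.6 and 5.88 FPKM (adjusted p = 0.278), and Rbbp4 from 3.84 and 4.45 to 12.2 and 7.96 FPKM (adjusted p = 0.441). Of 9 genes, 1 was higher and 2 were lower past 2-fold, where 24.2% and 33.8% of all genes were, and limma called 6.62% of all genes and 0 of 9 members, with Sin3b alone under an unadjusted p of 0.05. By the tables, this comparison rests on the column headed late 2-cell TSA and has the values given for it above. The libraries of Sin3a and Sin3b were lower than both late 2-cell control libraries, and those of Rbbp4 higher, by either reading, and libraries did not overlap for 4 of 9 members and 56.5% of all genes by the headers, and for 4 of 8 and 56.6% by the tables.

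With FK866 at the 4-cell stage, the direction for Kdm1a depended on the reading of the columns. By the headers, Kdm1a had 24.5 and 23.4 FPKM in control and 0.825 FPKM with FK866, a log2 fold change of -3.77 ± 0.46 with an adjusted p of 0.000589 by limma. Sin3b had 5.02 and 3.10 FPKM in control and 35.6 FPKM with FK866, a log2 fold change of 2.88 ± 0.68 with an adjusted p of 0.0159. That p rose to 0.106 when the libraries were centred on their medians. Hdac1 had 30.4 and 24.9 FPKM in control and 7.07 FPKM with FK866 (adjusted p = 0.0577), and Sap30 had 203.7 and 319.4 FPKM and 78.3 FPKM (adjusted p = 0.159 and 0.0548 under its 2 splits). Of 10 genes, 3 were higher and 5 lower past 2-fold, where 41.8% and 32.9% of all genes were, and limma called 2 of 9 members and 20.2% of all genes.

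By the tables, Kdm1a had 16.0 and 11.7 FPKM in 4-cell control and 30.7 and 21.3 FPKM with FK866. The FK866 libraries lay above the control libraries, and libraries did not overlap for 4 of 8 members and 36.5% of all genes, but the log2 fold change of 0.85 ± 0.38 had an adjusted p of 0.846 by limma and an unadjusted p of 0.0486. Hdac2 had 15.1 and 15.6 FPKM in control and 4.54 and 10.2 FPKM with FK866 (adjusted p = 1). By this reading 0 of 8 genes passed 2-fold, where 34.6% of all genes did, and limma called 0 of 9 members and 0.103% of all genes, with Kdm1a alone under an unadjusted p of 0.05. Hdac1, at 21.7 and 27.4 against 20.2 and 24.1 FPKM, and Sin3a, at 6.83 and 7.82 against 6.40 and 6.68 FPKM, lay close together. The 95% intervals of their log2 differences ran from -1.23 to 0.95 and from -1.37 to 1.09, so that changes within these bounds, which are not adjusted for the number of genes, are not excluded.

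The difference between the FK866 effects at the 4-cell and late 2-cell stages was fitted as well. For Kdm1a it was -2.98 ± 0.60 by the headers, with an adjusted p of 0.0142 by limma, and 1.64 ± 0.54 by the tables, with an adjusted p of 0.421. It was called for 1 of 9 members and 9.93% of all genes by the headers. By the tables it was called for 0 of 9 members and 0% of all genes, with 1 member under an unadjusted p of 0.05. The 0 calls by the tables became 222 higher and 25 lower without late 2-cell control library A, and 44 and 244 without late 2-cell FK866 library A. By the headers, the 4-cell FK866 arm is 1 library, whose spread limma takes from the other columns. For Sin3b it was 3.14 ± 0.88 by the headers (adjusted p = 0.0526).

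**Figure D5:**
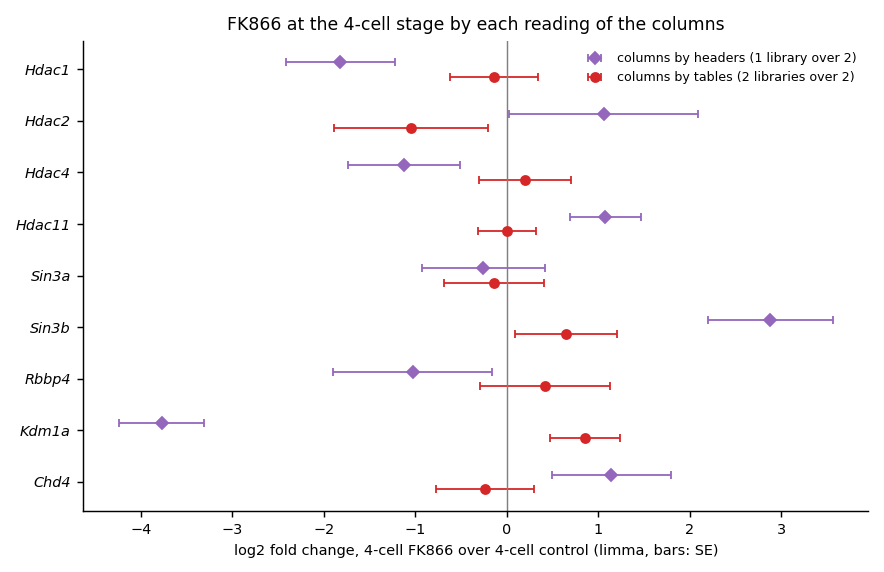
Log2 fold change of 4-cell FK866 over 4-cell control (horizontal axis) for 9 genes, with limma's SE as bars, by the headers (diamonds, 1 library over 2) and by the tables (circles, 2 libraries over 2). Kdm1a lies at -3.77 by the headers and at 0.85 by the tables.

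NMN added to FK866 at the 4-cell stage compares, by the headers, 2 columns of 1 library each. There is no replicate in either column, so that no p-value is given for this comparison. Kdm1a had 13.7 FPKM with NMN and 0.825 FPKM without. Hdac1 had 23.4 and 7.07 FPKM, Sin3a 23.7 and 8.21 FPKM, and Sap30 338.3 and 78.3 FPKM. Of 9 genes, 4 were higher and 1 was lower past 2-fold, where 25.0% and 34.7% of all genes were. The lower gene was Hdac11, which was counted only through its 1.11 FPKM (20 reads) without NMN. By the tables, Sap30 was the 1 of 9 genes past 2-fold, where 26.3% of all genes were, with 203.7 and 319.4 FPKM with NMN and 132.4 and 63.5 FPKM without (adjusted p = 1 and 0.805 by limma under its 2 splits). Limma called 0 of 9 members and 0.129% of all genes, with 0 of the 9 at an unadjusted p under 0.05.

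Hdac4 and Hdac11 had the lowest levels of the group. Hdac4 had 0 reads in 4 of 16 libraries and at most 1.69 FPKM. In each of the 3 late 2-cell groups with or without FK866, library A held 2 or 3 reads, from 0.0149 to 0.0212 FPKM, and library B held from 71 to 147 reads, from 1.02 to 1.14 FPKM. The 2 libraries of a group thus differed 54.0-fold to 68.0-fold. Of the exon length of Hdac4, 22.4% is shared with Gm26720 on the opposite strand. Hdac11 had reads in 3 libraries, 11 in early 2-cell library A, 16 in late 2-cell control library B and 20 in the column headed 4-cell FK866, with 0.507, 0.998 and 1.11 FPKM. The other 13 libraries had 0 reads, which allows up to 3 reads, and neither gene was called in any comparison. For FK866 at the 4-cell stage by the headers, Hdac11 is among the 3 genes counted higher and Hdac4 among the 5 counted lower. Each was counted there only through the column in which it was high, at 1.11 and 1.22 FPKM.

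Of 55 other genes of these complexes that were listed, 21 are in the rows, with none of the 7 other class I and II deacetylases. From early to late 2-cell, 3 of the 19 that were expressed were higher and 7 lower past 2-fold, where 32.2% and 31.7% of all genes were. Their median log2 difference was -0.34 against -0.0032 over all genes. Limma called 3 of the 19 and 15.0% of all genes fitted. Cdk2ap1, a small NuRD subunit, rose from a mean of 3.33 to 235.6 FPKM, with an adjusted p of 1.16e-05 by limma. Gatad2b, which binds MBD proteins in NuRD, fell from a mean of 34.8 to 9.60 FPKM (adjusted p = 0.0436 by limma). Cdk2ap1 was the listed gene with the levels most like those of Hdac1, with a Pearson r of 0.981 over the 9 columns, whose points share 2 libraries each in all but 2 columns. This r, the highest of those compared, rests on 2 low columns, early 2-cell and that headed 4-cell FK866. In the others Hdac1 had means from 22.1 to 27.6 FPKM and Cdk2ap1 from 141.0 to 359.5 FPKM. In the column headed 4-cell FK866, Cdk2ap1 was at 33.2 FPKM against 359.5 in the column headed 4-cell control (adjusted p = 0.000250 by limma) and 235.6 in late 2-cell control (adjusted p = 0.00102).

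At the late 2-cell stage, limma called 0 of the 20 listed genes in the fit in each of the 3 comparisons of FK866, FK866+NMN and control, with from 3 to 6 under an unadjusted p of 0.05. From 0.405% to 3.49% of all genes were called in these comparisons. In the contrast of 6 with 6 libraries, limma called 7 of these 20, with 2 higher and 5 lower, against 15.6% and 13.9% of all genes. Dnttip1, the scaffold of MiDAC, was higher at a mean of 16.4 against 2.90 FPKM (adjusted p = 0.00552 by limma). Gatad2a of NuRD was lower at 14.2 against 48.3 FPKM (adjusted p = 0.00329), and Tbl1xr1 of the NCoR and SMRT complex was lower at 2.21 against 12.3 FPKM (adjusted p = 0.0389). Under the late 2-cell TSA header, against late 2-cell control, Sap18b, a Sin3 partner, was lower at 117.6 against 396.9 FPKM (adjusted p = 0.00181 by limma). Hmg20b of CoREST was lower there at 3.39 against 22.8 FPKM (adjusted p = 0.0448 by limma). The tables name this column a control of the later stage, so that by them these values compare stages. The column that the tables name late 2-cell TSA is a lone library. It had 285.8 FPKM for Sap18b and 6.92 FPKM for Hmg20b, with log2 differences of -0.47 and -1.59 from late 2-cell control.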

How the data were processed

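By the study's methods, quality was assessed by FastQC, adapters were removed by Trim Galore, HISAT2 was run against mm10 and featureCounts gave reads per gene. The authors deposited FPKM values in 1 column per group, with no value per library. The annotation release, whether counting used strand and how reads that map to several places were counted are not given in the sources used here. Columns of the authors' comparisons are not in this file, and 24 samples of CUT&Tag were left out. The rows used here cover chromosomes 1 to 10 and part of 11.

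FPKM times the exon length in GENCODE M21 gave sums of whole reads over library totals, and an exact search recovered the reads of each library, for 97.0% to 97.8% of the values above 0. The search and the fit were tested on simulated data. Columns of 2 libraries were divided by 2. Fold changes use log2(FPKM + 1), which understates low ones. A gene counted where either column reached 1 FPKM, and a difference past 2-fold was counted. Limma with a trend was fitted over 16 libraries and 11618 genes with Benjamini-Hochberg adjustment (7 residual and 2.7 prior degrees of freedom), and Sap30 was added under each split of its reads. Where a column has 1 library, limma takes its spread from the others. An adjusted p under 0.05 is a call.

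Groups follow the labels, and the second reading follows the study's tables, because 84 of 84 values of each 4-cell group there equal the columns named above. The table for TSA gives the same sign as the column headed 4-cell FK866 for 1203 of 1203 genes, and the one for Sirt1 the sign of the column headed 4-cell FK866+NMN for 773 of 821. The next highest columns were early 2-cell for TSA, with 1096 of 1203, and late 2-cell FK866 for Sirt1, with 703 of 821. The 10 genes are named whatever their values, and other genes by a list of 55 and their size of change, at most 3 per comparison. In the contrast of 6 with 6 libraries and for levels of Cdk2ap1, genes were chosen after their values were seen. The members and lists were chosen with earlier results of these data known. The limits at low reads cover counting error only. Versions were Python 3.11.15, pandas 2.3.3, numpy 2.4.6, scipy 1.17.1, matplotlib 3.10.9, R 4.3.3 and limma 3.58.1.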

Additional observations from a re-analysis of the deposited data

Results flagged for a closer look

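The difference between the FK866 effects on Kdm1a at the 4-cell and late 2-cell stages, by the headers, was -2.98 on the log2 scale (SE 0.60, adjusted p = 0.0142 by limma's test of the difference itself). The 4-cell FK866 arm is 1 library with 20 reads of Kdm1a, for which limma assumes the spread of the other columns, so that this difference has no replicate check. By the tables, where that column is late 2-cell TSA, the difference was 1.64 (SE 0.54, adjusted p = 0.421), with the opposite sign.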

How the results depend on the processing

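No paired analysis was possible because the columns carry no replicate numbers, and the fit with the replicate number as a block was therefore not run. Of the alternatives other than leaving out a library, 105 gave a count of members within 1.5 times the one reported and 24 did not. Limma, in place of a 2-fold difference, gave 1 member from early to late 2-cell and 0 for FK866+NMN against control at late 2-cell. For the headers it gave 1 for TSA, 0 for Sirt1, 0 for late 2-cell to 4-cell and 2 for FK866 at 4-cell. By the tables it gave 1 for TSA, 1 for late 2-cell to 4-cell and 0 for FK866+NMN against FK866 at 4-cell. Asking also that libraries did not overlap gave 1 member from early to late 2-cell, Sap30 being unresolved. A pseudocount of 5 gave 0 for FK866+NMN against control at late 2-cell, and by the headers 2 for Sirt1, 1 for late 2-cell to 4-cell and 4 for FK866 at 4-cell. A pseudocount of 0.1 gave, by the tables, 1 for FK866 and 2 for FK866+NMN against FK866 at 4-cell. Centring on the median gave 0 for FK866+NMN against control and, by the tables, 1 for Sirt1 and 1 for FK866 at 4-cell. Values not divided by libraries gave, by the tables, 4 for Sirt1, 1 for FK866 and 2 for FK866+NMN against FK866 at 4-cell. Without a trend, limma called 2 members, not 1, for the difference between FK866 effects by the headers.

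Leaving out each library in turn gave, past 2-fold, 0 to 1 members for FK866 against control, 0 to 2 for FK866+NMN against FK866 and 1 to 2 for FK866+NMN against control at late 2-cell, 2 to 3 from early to late 2-cell, and 1 for Sirt1 by the tables. At 4-cell it gave 5 to 9 for FK866 by the headers, 0 to 3 by the tables, and 1 to 3 for FK866+NMN against FK866 by the tables. By the headers it gave 3 to 4 for TSA and 4 to 5 for Sirt1. The calls of limma over all comparisons, 6 with all libraries, ran from 4 to 12, with 12 without late 2-cell control library A and 11 without FK866+NMN library B. The causes were not tested. The median log2 difference of all genes ran from -0.44 for late 2-cell TSA to 0.42 for FK866 at 4-cell, both by the headers. Centring each library on its median in limma turned the calls over all genes from 30 higher and 213 lower to 1799 and 65 for FK866+NMN against FK866, and from 66 and 340 to 1925 and 114 for FK866+NMN against control, both at late 2-cell. Under headed TSA they went from 422 and 848 to 1490 and 404. In these fits Kdm1a with FK866+NMN changed sign, Sin3b was no longer called for headed TSA or headed 4-cell FK866, Rbbp4 was called for headed TSA, and the 4 calls of 6 with 6 libraries held. Hdac4 and Hdac11 had 0 reads in 4 and 13 of 16 libraries, and for Hdac4 these did not follow depth, since the deepest library held 0 reads and the shallowest 16.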
